A study of Mus musculus with 10 samples.

Results

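Transcript IDs named after the gene on the other strand were described here: Ensembl gene IDs whose GENCODE M21 symbol is a gene symbol followed by os, or os and a digit, for "opposite strand". An ID was kept when it held 10 or more counts summed over the 10 libraries. Of 298 such IDs in the count files, 137 passed that minimum, out of 53090 IDs in all. Another 113 had 0 counts and 48 had 1 to 9. The IDs of Bcas1 and Chn1 (4 in all) were left out, as were 22 symbols that end in os without being a gene symbol plus os. Symbols such as Uros and Nos3, which name proteins, are of that kind. The 137 IDs have 128 partner genes, and 121 of the IDs are annotated as antisense RNAs. Most lie opposite or beside the partner, but Zbtb8os lies 71218 bases beyond Zbtb8b, its assigned partner.

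The 10 libraries came from 10 C57BL/6 mice, 5 wild type and 5 homozygous for dTPR1, an allele of Stip1 without the TPR1 domain. Stip1 encodes STI1, the co-chaperone that links HSP70 to HSP90, and the study compared transcripts in control mice and mice without that domain. A small piece of cortex (about 3 mm) of 1 hemisphere was sequenced from each animal. Wild-type animals 1 to 5 were 663, 604, 663, 442 and 576 days old, and dTPR1 homozygotes 1 to 5 were 630, 606, 604, 582 and 541 days old. Library totals were 667751 to 927242 counts, so that 3 counts, the most that a count of 0 allows, equal 3.24 to 4.49 CPM (counts divided by the library total, scaled to a common size) by library. This floor covers counting error only, because reads counted without molecular identifiers can be copies of 1 molecule.

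Natural antisense transcripts are RNAs made from the strand opposite to a gene. Many start near the promoter of that gene or lie across its exons, most code for no protein, and they are usually far less abundant than the messenger RNA they face. Libraries that keep the strand of the RNA can tell the pair apart only if the counting uses the matching strand setting. That setting is not given in the sources used here. In these files 94.2% of all counts lay at IDs whose exons lie opposite to the exons of another gene. A count at an os ID is therefore given with its partner throughout, and whether its reads came from the os RNA or from the partner's RNA was not resolved read by read.

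The stretch that carries this point is the partner exon that an os ID covers, because it is protein-coding sequence lying under an ID annotated as antisense. The 5 exons printed here each lie whole, with the intron bases beside them, inside an os exon of a member described later. Only short exons that are coding over their whole length were taken, and only the first found per os ID. St8sia3os and os IDs annotated as protein-coding were not considered. They are from build GRCm38 with GENCODE M21 transcripts, written 5′ to 3′ on the partner's strand. Capitals mark coding bases, and lower case marks 20 intron bases on each side, ending in ag before the exon and starting with gt after it. Grin1os lies on the plus strand. For Grin1os the printed stretch is chr2:25296857-25297054 (minus strand), with 158 coding bases of Grin1 from 25296877 to 25297034.
Grin1 exon facing Grin1os: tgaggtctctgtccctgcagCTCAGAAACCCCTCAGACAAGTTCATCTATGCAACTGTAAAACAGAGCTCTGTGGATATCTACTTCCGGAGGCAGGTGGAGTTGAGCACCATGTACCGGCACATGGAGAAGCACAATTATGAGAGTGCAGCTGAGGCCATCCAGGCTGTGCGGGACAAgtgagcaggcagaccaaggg
For Ube4bos1 the printed stretch is chr4:149359177-149359330 (minus strand), with 114 coding bases of Ube4b from 149359197 to 149359310.
Ube4b exon facing Ube4bos1: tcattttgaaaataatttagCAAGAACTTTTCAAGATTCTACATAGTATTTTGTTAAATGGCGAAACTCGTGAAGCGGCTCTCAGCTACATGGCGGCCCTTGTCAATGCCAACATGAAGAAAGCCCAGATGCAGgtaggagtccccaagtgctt
For Atcayos the printed stretch is chr10:81210504-81210642 (minus strand), with 99 coding bases of Atcay from 81210524 to 81210622.
Atcay exon facing Atcayos: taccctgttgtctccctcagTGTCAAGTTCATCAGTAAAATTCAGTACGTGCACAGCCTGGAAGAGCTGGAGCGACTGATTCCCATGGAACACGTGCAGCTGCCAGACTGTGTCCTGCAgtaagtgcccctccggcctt
For Anxa11os the printed stretch is chr14:25870049-25870201 (plus strand), with 113 coding bases of Anxa11 from 25870069 to 25870181.
Anxa11 exon facing Anxa11os: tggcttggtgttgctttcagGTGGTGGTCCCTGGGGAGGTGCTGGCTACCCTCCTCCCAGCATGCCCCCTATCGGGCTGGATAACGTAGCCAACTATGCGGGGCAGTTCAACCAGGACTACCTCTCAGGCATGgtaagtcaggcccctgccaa
For Galnt6os the printed stretch is chr15:100704091-100704280 (minus strand), with 150 coding bases of Galnt6 from 100704111 to 100704260.
Galnt6 exon facing Galnt6os: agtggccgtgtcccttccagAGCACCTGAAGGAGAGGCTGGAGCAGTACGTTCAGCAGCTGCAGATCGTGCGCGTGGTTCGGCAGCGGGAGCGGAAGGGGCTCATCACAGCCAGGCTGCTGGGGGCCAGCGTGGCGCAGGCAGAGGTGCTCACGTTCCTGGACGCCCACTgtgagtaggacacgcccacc

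Together the 137 os IDs held 107623 counts, 1.35% of all counts. The share was 1.33% ± 0.129 in wild-type and 1.37% ± 0.0883 in libraries of dTPR1 homozygotes (SD, n = 5 each), with single libraries between 1.17% and 1.47%. Counts were very uneven among the IDs. Grin1os alone held 33.2% of them, the 10 IDs with most counts held 65.4%, and the median ID held 124 counts. A total of 63 os IDs were counted in all 10 libraries, 17 in only 2 or 3 and 4 in only 1. At the edge of the count minimum stood Fcnaos, Bcas3os2, Macrod2os1, Dlx4os and Pnpla1os, each with 10 counts. Fcnaos, Bcas3os2 and Pnpla1os had all 10 in 1 library. Just outside were Grip1os1 with 8 counts and 7 IDs with 7 counts, Notumos and Itpr3os among them.

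Most of the os IDs kept here held more counts than the own ID of the gene they are named after. The rule favours this, because os IDs needed 10 or more counts and partner IDs had no minimum. The comparison is therefore a description of the kept IDs, and its size depends on that minimum, as given in the closing section. It sets counts at IDs side by side and not the levels of os RNA and messenger RNA, because the strand setting is not given. The os total was above the total at the partner's own ID in 117 of 137 cases, and per kb of exon in 128 of 137. The median was 70.8 counts per kb of exon for os IDs and 1.47 for partner IDs. In single libraries the os ID was the higher of the pair for 81 to 98 IDs and the partner ID for 17 to 29. Of the 128 partner genes, all of whose own IDs were in the files, 27 had 0 counts in every library, and the median total was 8. The median log2 ratio of os ID to partner ID, with 1 added to each total, was 3.98, and 2 to 3.32 in single libraries. At the extreme, Grin1 had 1 count against 35753 at Grin1os, St8sia3 1 against 2351, and Efhd1 1 against 1736.

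**Figure D1:**
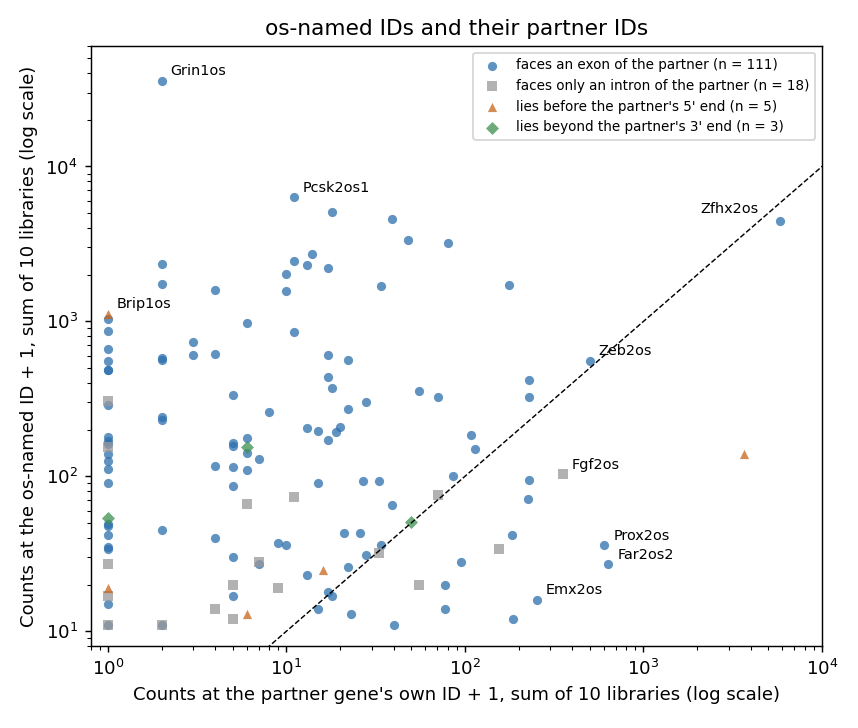
Counts at each of the 137 os-named IDs (vertical axis) against counts at the partner gene's own ID (horizontal axis), both summed over 10 libraries, plus 1, on log scales; symbols give the position of the os ID relative to the partner and the dashed line marks equal counts. Most points lie above the line, with Grin1os (35753 against 1) farthest from it, and 20 lie below it, Emx2os (15 against 251) and Zfhx2os (4465 against 5796) among them. Only os IDs with 10 or more counts are plotted, while partner IDs had no minimum.

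Counts lay mostly at os IDs that face a partner exon. Such an exon was faced by 111 of the 137, which held 105051 counts (97.6% of the os counts, median 167 per ID). Another 18 faced only an intron of the partner and held 1006 counts (0.935%, median 26.5). The 5 that lie before the partner's 5′ end held 1310 counts, of which 1117 were at Brip1os, and the 3 beyond its 3′ end held 256. Brip1os, named after the DNA helicase gene Brip1, faces no Brip1 exon but 800 exon bases of Med13, which encodes a Mediator subunit. The own IDs of Med13 and Brip1 had 4 and 0 counts. With exons of any gene counted, 115 os IDs faced one and held 98.8% of the os counts. Stamos faced neither an exon nor an intron and lay outside 5 kb downstream of any gene on the other strand. It had 18 counts.

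The stretch faced was often short. Over the 111 IDs it had a median of 255 bases (2 to 3255), which was a median of 15.1% of the exon bases of the os ID. Coding bases were faced by 85 IDs, which held 96493 counts (median 204), and 26 IDs faced only exon bases outside the coding sequence and held 8558 (median 104). Across these 111 IDs the faced length and the total count had a Spearman rho of 0.29, and across all 137 the exon length and the total count had a rho of 0.20. Both are descriptions over genes that share libraries. A short stretch could go with a sizeable count, as at Aknaos, which faced 6 bases of Akna and held 240 counts. Counts are per ID, and where in the ID the reads lie was not examined.

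The counted gene need not be the one in the name. On the other strand, 23 os IDs faced exons of a gene other than the partner, and 14 of them faced more bases of that gene than of the partner. Among the 14, Brip1os, Zbtb8os, Fbxl12os and Atad3aos faced no partner exon. Dhrs13os covers 528 exon bases of Phf12, a chromatin-associated PHD finger gene, and 386 of Dhrs13. Tomm6os covers 1221 of Prickle4 and 219 of Tomm6, a subunit of the mitochondrial import complex. Phtf1os covers 2101 of Rsbn1 and 448 of Phtf1. Six3os1 covers 323 of Gm27283 and 106 of Six3. For these IDs the counts cannot be given to 1 gene.

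Other antisense IDs were close to the os IDs in these measures. Among IDs annotated as antisense, 1113 others also had 10 or more counts, with a median total of 117, and 84.7% of them faced an exon. The 121 antisense os IDs had a median total of 109 and 85.1% of them faced an exon. Among all 8753 IDs with 10 or more counts the share that faced an exon was 56.6%. The os members were selected by count, so these are descriptions and no test was made.

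The partner IDs held 14918 counts. Of 16 partner IDs with 100 or more counts, 11 themselves face an exon of their os ID more than of any other gene. Zfhx2, a zinc finger homeobox gene, had 5796 counts and Zfhx2os 4465, so that both IDs of the pair were highly counted. They face each other over 3255 bases, 2482 of them coding in Zfhx2, and 2807 exon bases of Zfhx2os are shared with Gm20687 on the same strand, which had 0 counts. Prox2 had 601 counts and faces Prox2os, Zeb2 had 499 and faces Zeb2os, and Emx2 had 251 and faces Emx2os. Others face a gene that is not in the os name. Far2 (636 counts) faces mostly Ergic2, and Fgf2 (352 counts), a growth factor gene, faces mostly Nudt6. Pitpnm2 (155 counts) faced no exon.

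**Figure D2:**
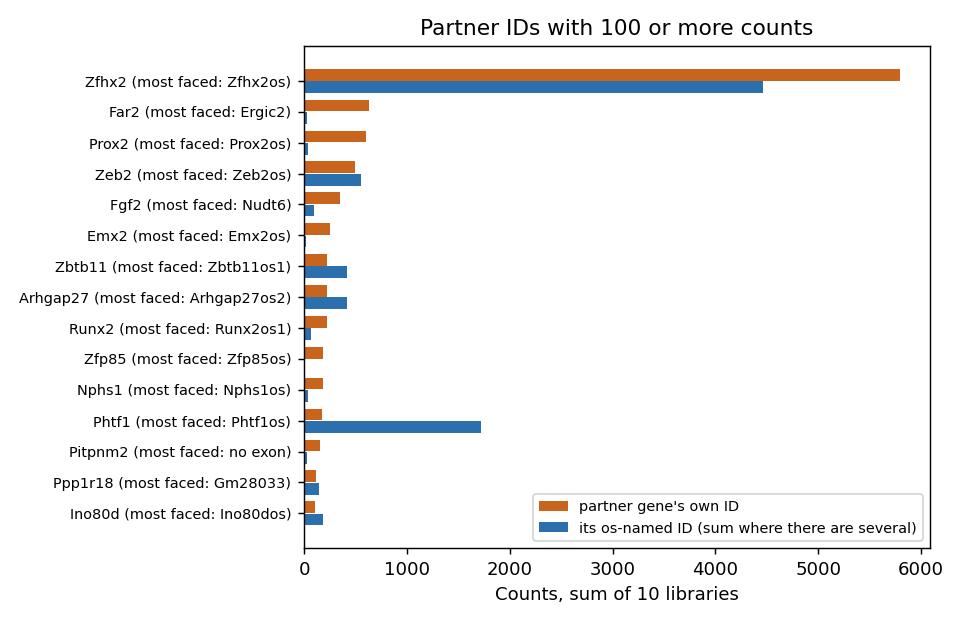
Counts summed over 10 libraries at 15 of the 16 partner IDs with 100 or more counts (orange) and at their os-named IDs (blue), with the gene whose exons each partner ID faces most in brackets. Among those plotted, Zfhx2 (5796) stands far above the rest, and Phtf1os is the one os ID that is many times its partner. The partner ID left out of the plot had the most counts after Zfhx2.

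The 10 os IDs with most counts have partners of several kinds, from a glutamate receptor subunit to transcription factors and enzymes. Grin1os (ENSMUSG00000085830.1, chromosome 2, 25291220 to 25298925) faces 1307 exon bases of Grin1, the obligatory subunit of NMDA-type glutamate receptors. Its level was 4797, 3757, 3687, 4768 and 5131 CPM in wild-type animals 1 to 5 and 4764, 3471, 4995, 5272 and 4150 CPM in dTPR1 homozygotes 1 to 5. The lowest of all was dTPR1 homozygote 2 and the highest dTPR1 homozygote 4, so the groups overlapped over their whole range. The means were 4428 ± 660.5 and 4531 ± 722 CPM (SD, n = 5 each), with a log2 fold change, dTPR1 homozygous over wild type, of 0.05 ± 0.15 (SE).

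Pcsk2os1 (chromosome 2, 143535476 to 143547837) faces 260 exon bases of Pcsk2, a convertase that cleaves neuropeptide and hormone precursors. It was counted at 808, 508, 639, 996 and 951 CPM in wild type and at 831, 700, 1138, 743 and 713 CPM in homozygotes. The groups overlapped, and the log2 fold change was 0.10 ± 0.19. Ube4bos1 (chromosome 4, 149347885 to 149365277) faces 452 bases of Ube4b, a U-box ubiquitin ligase, all of them coding. Its means were 623 ± 98.3 CPM in wild type and 668 ± 96.2 CPM in homozygotes. Mypopos (chromosome 7, 18993234 to 19001222), opposite Mypop, a Myb-related transcription factor gene, had means of 595 ± 102 and 551 ± 106 CPM. For both, the difference was smaller than the SD within a group.

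Zfhx2os (chromosome 14, 55053869 to 55075873) had means of 595 ± 163 CPM in wild type and 516 ± 167 CPM in homozygotes, and the Zfhx2 ID 769 ± 115 and 688 ± 161 CPM. Their log2 fold changes were -0.19 ± 0.24 and -0.15 ± 0.18. Rab10os (chromosome 12, 3235504 to 3250377), opposite Rab10, a small GTPase of vesicle transport, varied least among the 10, with 364 to 436 CPM in wild type and 341 to 456 CPM in homozygotes. Fam219aos (chromosome 4, 41517437 to 41518929) faces 469 exon bases of Fam219a, none of them coding. It was counted at 275, 416, 275, 332.5 and 545.5 CPM in wild type and at 442, 449, 551, 434 and 482 CPM in homozygotes. All 5 dTPR1 homozygous values lay above 4 of the 5 wild-type values, and wild-type animal 5 lay among them.

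Dhrs13os (chromosome 11, 78030012 to 78032665), opposite Dhrs13 of the dehydrogenase and reductase family, was counted at 442, 409, 624, 205 and 256 CPM in wild type and at 307, 341, 196, 253 and 351 CPM in homozygotes. The groups overlapped, with 3 wild-type animals above every dTPR1 homozygous one. Atcayos (chromosome 10, 81194609 to 81210877) faces 432 exon bases of Atcay, the gene of caytaxin, a neuronal protein whose loss causes ataxia. It was counted at 439, 141, 154, 358 and 416.5 CPM in wild type and at 555, 261, 258, 316 and 222 CPM in homozygotes. Wild-type animals 2 and 3 were the lowest of the 10 and dTPR1 homozygote 1 the highest.

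**Figure D3:**
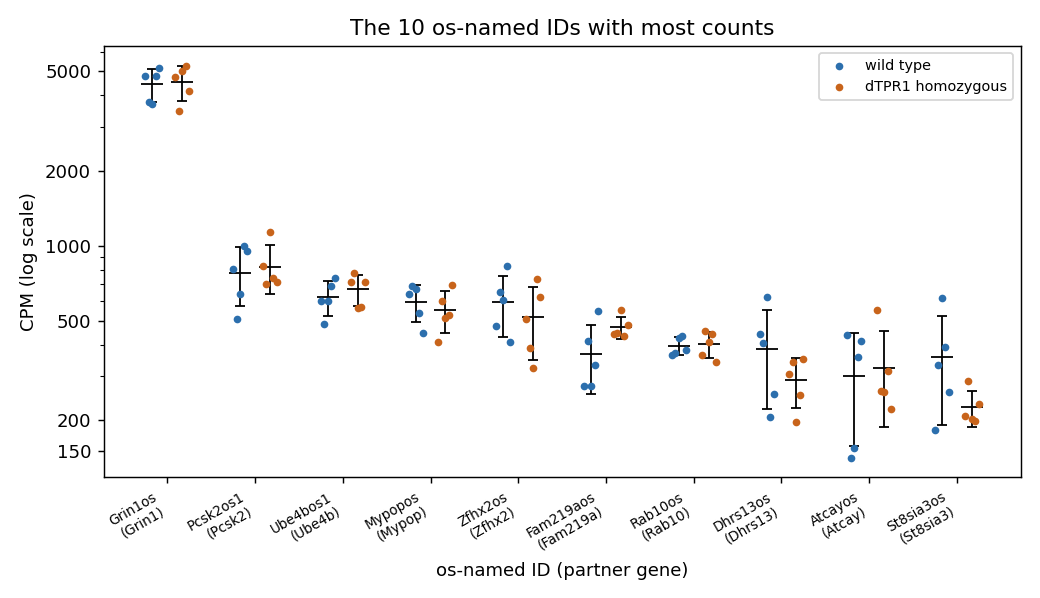
CPM (log scale) of the 10 os-named IDs with most counts in each of 5 wild-type (blue) and 5 dTPR1 homozygous (orange) libraries; horizontal lines are means and bars are SD. The genotypes overlap at every ID, Grin1os is the highest at 3471 to 5272 CPM, and the wild-type spread is widest at Atcayos and St8sia3os.

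The genotype comparison asks which of these IDs differ in cortex without the TPR1 domain of STI1. It was made by edgeR's quasi-likelihood test over all 3027 IDs that passed its filter on low counts, of which 0 (0%) had an adjusted p (Benjamini-Hochberg) under 0.05. Of the 137 os IDs, 74 passed the filter and 63 were too low. None of the 74 was called, with a smallest adjusted p of 0.997, and 2 of 74 (2.70%) had an unadjusted p under 0.05, against 2.54% of all tested IDs. DESeq2 and limma-voom called 0 as well, and each gave 2 os IDs (2.70%) at that unadjusted level, against 3.40% and 4.13% of all tested IDs. With edgeR that count was 4 (5.41%) without wild-type animal 5, where 4.11% of all tested IDs had such a p. It was 1 with wild-type animal 1 or dTPR1 homozygote 3 left out (1.33% and 1.32%, against 2.75% and 2.05% of all). Groups without overlap in CPM were found for 0 of 74 os IDs and for 0.429% of all tested IDs. Fold changes were positive for 49 and negative for 25 os IDs (66.2% positive), and 52.1% of all tested IDs were positive. The median was 0.10 over the os IDs and 0.02 over all tested IDs. The os IDs share the same 10 libraries and are not independent of each other.

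The precision differed by level. The SE of the log2 fold change had a median of 0.45 (0.148 to 1.19), and was under 0.25 for 12 os IDs and under 0.5 for 41. Fold changes ran from -0.85 at Lrrc75aos2 to 1.82 at Anxa11os, and 4 were beyond 1 in size. Among the IDs described so far, the sign at Grin1os, Pcsk2os1, Rab10os and Atcayos turned when certain single libraries were left out.

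**Figure D4:**
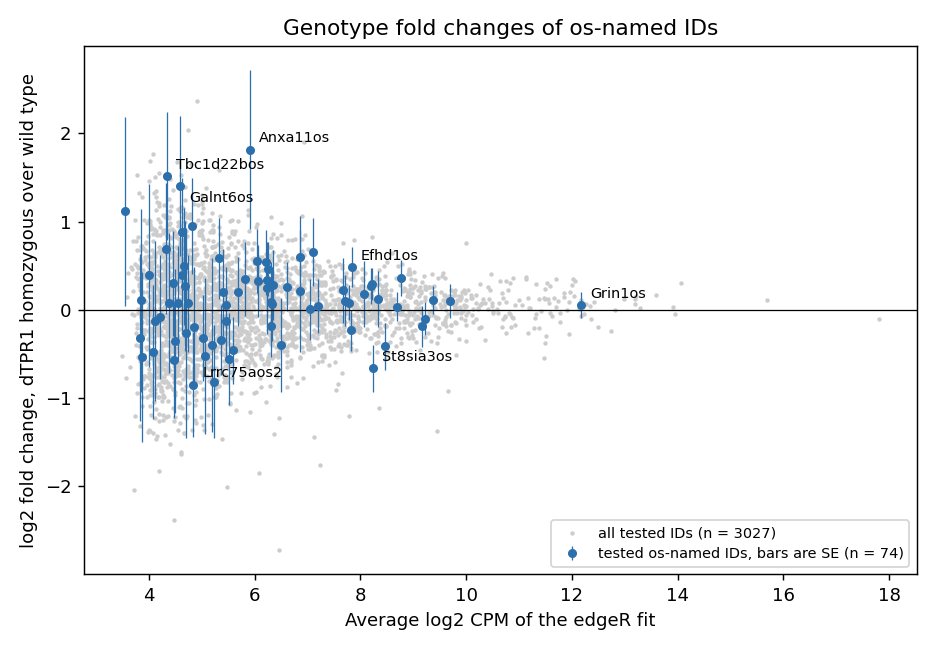
log2 fold change, dTPR1 homozygous over wild type, against the average log2 CPM of the edgeR fit for all 3027 tested IDs (grey) and the 74 tested os-named IDs (blue, bars are SE). The os IDs with fold changes beyond 1 are at low levels with long bars, and Grin1os, the most counted, sits at 0.05 ± 0.15.

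St8sia3os (chromosome 18) had the smallest p. It faces 919 exon bases of St8sia3, a sialyltransferase of brain glycoproteins and gangliosides. It was counted at 182, 332, 620, 394 and 259 CPM in wild type and at 208, 288, 202, 199 and 231 CPM in homozygotes. Wild-type animals 2, 3 and 4 were above every dTPR1 homozygote, animal 5 lay within their range and animal 1 was the lowest of the 10. The means were 357 ± 167 and 226 ± 37.2 CPM, a log2 fold change of -0.66 ± 0.27 with an unadjusted p of 0.023 and an adjusted p of 0.997 in edgeR. The fold change was -0.15 with the striatal marker level, described further on, in the model.

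Efhd1os (chromosome 1, 87264481 to 87265174) was the other. It faces 254 coding bases of Efhd1, a calcium-binding protein of mitochondria. It was counted at 175, 148, 207, 207 and 183 CPM in wild type and at 207, 353, 267, 295 and 153 CPM in homozygotes. Homozygotes 2, 3 and 4 were above all wild-type animals, while animals 1 and 5 were not. The means were 184 ± 24.7 and 255 ± 77.4 CPM, a log2 fold change of 0.48 ± 0.23 with an unadjusted p of 0.046 in edgeR.

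The next IDs by p missed even the unadjusted level. Tbc1d22bos, opposite a Rab GTPase-activating protein gene, had 6, 15, 11, 1 and 4 counts in wild type and 36, 11, 12, 35 and 8 in libraries of dTPR1 homozygotes (log2 fold change 1.52 ± 0.73). Anxa11os (chromosome 14, 25856777 to 25870266), opposite the annexin gene Anxa11, had 9, 0, 4, 33 and 54 against 28, 13, 108, 99 and 86 counts (1.82 ± 0.90). Galnt6os, opposite an enzyme that starts O-linked glycans, had 6, 4, 14, 7 and 17 against 0, 31, 29, 15 and 38 counts (1.40 ± 0.79). In each of the 3, at least 1 dTPR1 homozygous library fell inside the wild-type range. Fam219aos had a fold change of 0.36 ± 0.20. Man2c1os, opposite a cytosolic mannosidase gene, stood at 0.95 ± 0.54, and Prss23os, opposite a serine protease gene, at 0.66 ± 0.38. Hectd2os, opposite a HECT-type ubiquitin ligase gene, stood at 0.29 ± 0.19 and Dhrs13os at -0.42 ± 0.27.

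Grouped by what the partner does, no group held a called os ID. Partners in neuronal signalling and the synapse had 11 of 22 os IDs tested, 9 positive and 2 negative (median log2 fold change 0.12), with Grin1os, Pcsk2os1 and Kcnmb4os1 among the positive and St8sia3os among the negative. Partners in protein turnover and folding, the group nearest to STI1's own role, had 10 of 12 tested, 8 positive and 2 negative. Their median was 0.31, from -0.12 to 0.95, with Ube4bos1 at 0.11, Hectd2os at 0.29 and Prss23os at 0.66. Partners in mitochondria and metabolism had 6 positive and 5 negative of 11 tested (median 0.08). Partners in trafficking, signalling and the cytoskeleton had 13 and 5 of 18 (0.10), and partners in transcription and chromatin 10 and 6 of 16 (0.06). The remaining partners had 3 and 5 of 8 (-0.29). Over all tested IDs the median was 0.02 and 52.1% were positive, against 66.2% of the tested os IDs. The tallies count IDs and not separate genes. Pcsk2, Kcnmb4 and Rapgef4 in the neuronal group each had 2 tested os IDs. So did Ube4b in protein turnover and Arhgap27 in trafficking.

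The partner IDs gave no call either. Of 17 tested, 0 were called by edgeR and 0 had an unadjusted p under 0.05. Zeb2 and Zeb2os, which face each other, had fold changes of -0.35 ± 0.42 and 0.34 ± 0.41, each smaller than its SE.

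A list of developmental transcription factors was examined whatever their values, and 10 os IDs had a partner on it. Of these 4 could be tested, namely Zfhx2os, Nkx2-2os, Zeb2os and Dlx6os2. Nkx2-2os, opposite a homeobox gene of the oligodendrocyte lineage, had 21, 86, 75, 53 and 31 counts in wild type and 51, 134, 14, 70 and 24 in libraries of dTPR1 homozygotes. Its highest and lowest values were both in dTPR1 homozygotes, and its fold change of 0.24 ± 0.52 became -0.44 without dTPR1 homozygote 2. Dlx6os2 (chromosome 6, 6863797 to 6865150) faces 104 coding bases of Dlx6, a homeobox gene of forebrain GABA neurons. It had 18, 66, 75, 20 and 30 counts in wild type and 38, 49, 16, 12 and 12 in libraries of dTPR1 homozygotes (-0.56 ± 0.52). Wild-type animals 2 and 3 were the highest. The list does not hold every such gene. Runx2os1, for example, whose partner Runx2 acts in bone development, was not on it and had a fold change of 1.12 ± 1.07.

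The other os IDs with a partner on the list were too low for the test. Six3os1 (chromosome 17, 85600651 to 85618398), at the locus of the forebrain homeobox gene Six3, had 0, 65, 59, 0 and 1 counts in wild type and 10, 21, 0, 0 and 0 in libraries of dTPR1 homozygotes, so 2 wild-type animals held most of its 156 counts. Prox1os was the steadiest, with 9, 15, 8, 7 and 11 against 10, 8, 8, 14 and 9 counts. The ID of Prox1 itself, a homeobox gene of dentate gyrus neurons that faces Prox1os, had 0 counts in all 5 wild-type libraries and 0, 6, 7, 72 and 0 in libraries of dTPR1 homozygotes, so 1 animal held most of them. Irx3os, named after an Iroquois homeobox gene, had 0, 0, 9, 0 and 12 against 0, 8, 8, 0 and 5 counts. Emx2os had 0, 9, 0, 0 and 0 against 0, 0, 5, 1 and 0, while the ID of Emx2, a homeobox gene of cortical patterning, was counted in every library (19, 58, 42, 16 and 5 against 19, 11, 32, 47 and 2). Tbx3os1, named after a T-box gene, held 17 counts and Dlx4os 10, the latter in 2 libraries.

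The pieces of cortex differed in markers of other regions, and the os IDs were set against those of the striatum, which lies beneath the cortex. Of 15 striatal marker genes 4 could be read, through the IDs that face them (Penk, Ppp1r1b, Rarb and Syndig1l), and the other 11 had no such ID. Their mean log2 CPM was 7.70, 9.85, 10.4, 9.20 and 7.49 in wild-type animals 1 to 5 and 7.56, 8.57, 7.64, 6.25 and 8.72 in dTPR1 homozygotes 1 to 5. Their summed level ran from 803 to 5306 CPM in wild type and from 388 to 2189 CPM in homozygotes. In bulk tissue fewer cells of a type and less RNA per cell cannot be told apart. Of 8 markers of cortical excitatory neurons 2 could be read, too few to check the labelled tissue by them. The one given here is Neurod1, a bHLH gene of excitatory neurons, picked after the values were seen. It was read at 302, 100.3, 73.6, 226 and 442 CPM in wild-type animals 1 to 5 and at 266, 129, 206, 420 and 324 CPM in dTPR1 homozygotes 1 to 5. Its lowest values were in wild-type animals 2 and 3 and homozygote 2, where Grin1os was lowest too. Whether this had a part in the values of Grin1os was not tested. Of 10 markers of GABA neurons Dlx1 and Slc32a1 could be read. Their summed level was 534 to 1801 CPM in wild type and 424 to 1488 CPM in homozygotes. Of 10 markers of oligodendrocytes and their precursors Bcas1 and Gpr17 could be read above 0, and Pdgfra was at 0. The summed level of that list was 842 to 1581 CPM in wild type and 1375 to 2291 CPM in homozygotes. Whether that list had a part in the values of Nkx2-2os was not tested.

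With the striatal level and genotype in 1 edgeR model, 0 of 74 os IDs had an adjusted p under 0.05 for the striatal level, against 0.198% of all tested IDs. At the unadjusted level 6 of 74 did (8.11%), against 6.94% of all. Per unit of the striatal level (a doubling), slopes were positive at St8sia3os (0.35 ± 0.10 on the log2 scale, adjusted p = 0.32 in edgeR) and Dlx6os2 (0.56 ± 0.23). Slopes were negative at Atcayos (-0.42 ± 0.12, adjusted p = 0.35 in edgeR), Kcnmb4os1 (-0.45 ± 0.15), Grin1os (-0.16 ± 0.06) and Hopxos (-0.50 ± 0.20). Kcnmb4os1 faces Kcnmb4, an auxiliary subunit of BK potassium channels, and Hopxos faces the atypical homeobox gene Hopx. Both were named after their slopes were seen. Without wild-type animal 3 and dTPR1 homozygote 4, the 2 farthest from the median striatal level, the slopes were 0.34, 0.42, -0.55, -0.59, -0.15 and -0.22 in the same order. Those of Atcayos and Hopxos moved by more than their SE, and the unadjusted p was 0.22 at Dlx6os2, 0.15 at Grin1os and 0.38 at Hopxos in edgeR. Without those libraries 7 os IDs had an unadjusted p under 0.05 in edgeR, of which 3 (St8sia3os, Atcayos and Kcnmb4os1) also had one with all 10. The share of all tested IDs in that smaller fit is not given here, so the 7 cannot be read as more than the background. Among the other 4 of the 7, Zfhx2os went from a slope of 0.05 to 0.36 and Nkx2-2os from 0.44 to 0.83. Six3os1, not tested, had its highest counts in wild-type animals 2 and 3, the animals with most striatal signal. No other marker list was put in a model. Dlx6os2 was highest in wild-type animals 3 and 2 and homozygotes 2 and 1. The GABA list was highest in the same animals (mean log2 CPM 8.83, 9.01, 9.09 and 8.53 in that order). Kcnmb4os1 was highest in wild-type animal 5 and homozygotes 1 and 3, as was the mean of astrocyte markers Aldh1l1 and Slc1a2. St8sia3os was highest in wild-type animals 3, 4 and 2, as was the striatal level. Whether a slope is particular to the striatum, and the part of tissue composition in these values, was not tested.

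**Figure D5:**
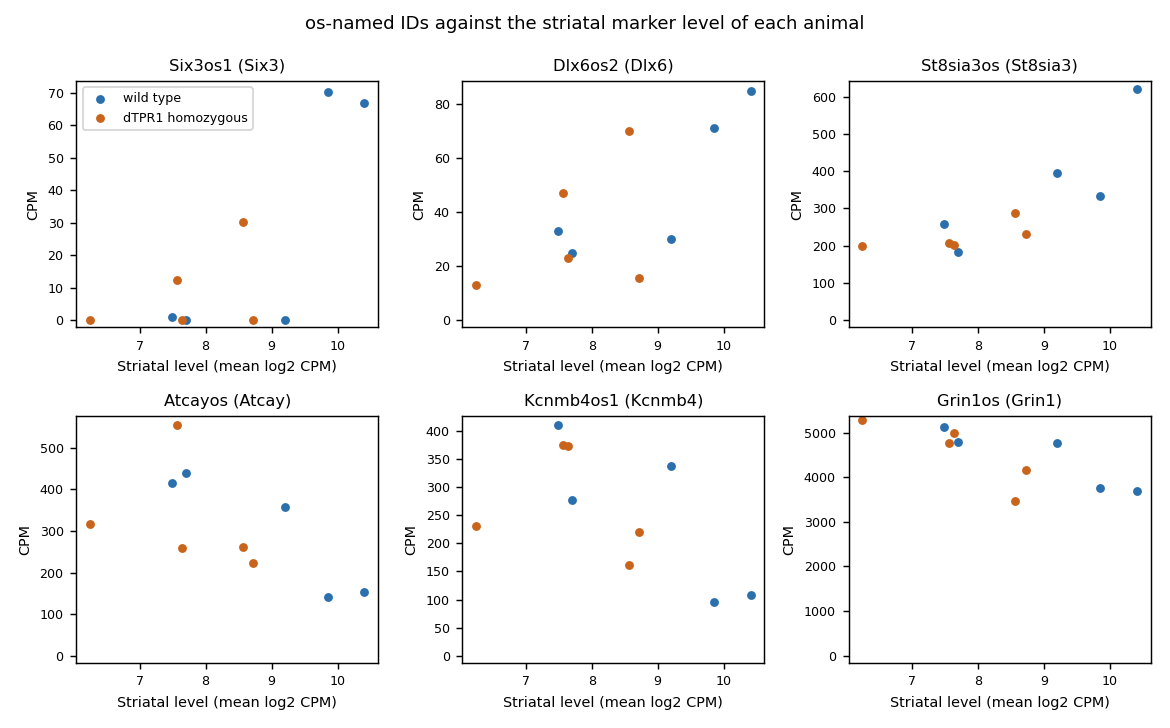
CPM of 6 os-named IDs against the mean log2 CPM of 4 striatal markers in each of 5 wild-type (blue) and 5 dTPR1 homozygous (orange) animals. Wild-type animals 2 and 3, at 9.85 and 10.4, are the highest for Six3os1 and Dlx6os2 and the lowest for Atcayos and Kcnmb4os1.

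Where 2 IDs lie opposite the same partner, they could be set side by side. There were 7 such pairs with 300 or more counts in each ID, and the correlation of their log2 CPM was computed over the 10 libraries, with 100000 permutations and adjustment over the 7. None passed (0 of 7, adjusted p of 0.14 or more). By Pearson's r 1 pair had an unadjusted permutation p under 0.05, and by Spearman's rho the Kcnmb4 pair had one too. The pair by Pearson's r was Pcsk2os1 with Pcsk2os2 (Pearson's r = 0.68, permutation p = 0.029, adjusted p = 0.14, and Spearman's rho = 0.73, permutation p = 0.021, adjusted p = 0.15). It rested on 2 libraries, since r was 0.15 without wild-type animal 2 and dTPR1 homozygote 3. Kcnmb4os1 and Kcnmb4os2 had r = 0.62 (permutation p = 0.061, adjusted p = 0.14) and rho = 0.66 (permutation p = 0.044, adjusted p = 0.15), and r = 0.76 without wild-type animals 2 and 3. The remaining pairs with both IDs named os were Ube4bos1 with Ube4bos3 (r = 0.38) and Rapgef4os2 with Rapgef4os3 (r = 0.09). The others pair an os ID with an antisense ID of another name.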

How the data were processed

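Cortex RNA of 10 animals was sequenced as single-end SENSE Total RNA-Seq libraries, per the labels. The deposited values are raw counts per Ensembl gene ID made by the authors; TopHat, HTSeq, DESeq2 and GRCm38.p5 are named in the submitters' processing notes, without versions or strand setting. No row stood for unassigned reads (0 rows). Positions came from GENCODE M21 (GRCm38), which holds 52489 of the IDs and lacks 601. Libraries held 667751 to 927242 counts, which limits low IDs most.

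Facing bases were exon bases of an ID that lie opposite exon bases on the other strand. A marker gene was read at IDs with at least 90% of their facing bases on that gene. CPM are counts over library totals, and logs of marker levels used a prior count of 2. Genotypes were compared by edgeR 4.0.16 in R 4.3.3 (TMM, filterByExpr, robust quasi-likelihood, all 10 libraries, no covariates; tested on simulated data), with DESeq2 1.42.0 and limma 3.58.1 as alternatives. Pair correlations used log2(CPM + 10), with permutation p from SciPy 1.17.1, two-sided. Named were the 10 os IDs with most counts, the 10 with the smallest p, those of developmental transcription factors and those nearest to the count minimum. The os IDs, lists and partner groups were chosen with earlier results of these data known. Animal numbers, which the groups share, were treated only as names. Other alternatives were scaling, filters, age, animal number, striatal level, mitochondrial IDs and each library left out. Left out were the IDs of Bcas1 and Chn1, and values of some other IDs are not reported here, although the counts and fits include them.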

Additional observations from a re-analysis of the deposited data

Results flagged for a closer look

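In 52 groups of 5 libraries (26 os IDs named by rule, by genotype), the highest or lowest library was compared with its nearest neighbour by Dixon's test at the 95% level. A library stood apart in 9 of them. Chance flags about 1 in 20 such groups of normally spread values, a rate that does not apply to the 3 groups (Emx2os in wild type and Dlx4os in both genotypes) in which 4 libraries were at 0 and 1 was not. Atcayos reached 555 CPM in dTPR1 homozygote 1, with the next at 316. Hectd2os was low in wild-type animal 2 (187 CPM, next 265) and high in dTPR1 homozygote 4 (407 CPM, next 298.5). The other 6 were at few counts. Prox1os reached 15.1 CPM in dTPR1 homozygote 4 (next 12.4), and Tbx3os1 11.1 CPM in wild-type animal 1 (next 3.00). Emx2os reached 9.71 CPM in wild-type animal 2, the only wild-type library with a count, and 7.25 CPM in dTPR1 homozygote 3 (next 1.08). Dlx4os was counted in wild-type animal 2 (2.16 CPM) and dTPR1 homozygote 4 (8.65 CPM) and in no other library.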

How the results depend on the processing

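The count of os IDs called by genotype was 0 in every fit run, also without any 1 library, and the smallest adjusted p of a named os ID over all alternatives was 0.305 (edgeR, DESeq2 or limma-voom). The count with an unadjusted p under 0.05, 2 in the report, was 1 with DESeq2 size factors, 1 with mitochondrial IDs left out, 0 with the striatal level in the model and 11 of 137 (8.03%) without the filter on low counts, where 9.01% of all IDs had such a p, and 1 to 4 without any 1 library. With animal number as a replicate block it was 1. Whether the numbers pair the animals cannot be settled by 5 correlations. The deviations of same-numbered animals correlated at -0.092 to 0.12, and 2 of 5 animals correlated best with their own number.

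The share of os counts at IDs that face an exon, 98.8%, was 77.9% when at least 10% of the exon bases had to face one, and 98.7% to 98.9% without any 1 library. The median log2 ratio of os ID to partner ID, 3.98, was 5.23 at a minimum of 50 counts, 2.32 at a minimum of 1 and 4.42 with 0.1 added in place of 1, and 3.68 to 4.09 without any 1 library.

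Of 20 named os IDs in the fit, 12 kept the sign of their fold change under every alternative and 8 did not (23 of 437 values). With the striatal level in the model, Grin1os was at -0.14, Pcsk2os1 at -0.053, Mypopos at 0.079, Atcayos at -0.28 and Dlx6os2 at 0.19. Without wild-type animals 2 and 3, an alternative chosen with the data known, Grin1os was at -0.076, Pcsk2os1 at -0.12, Mypopos at 0.072, Atcayos at -0.29, Zeb2os at -0.0011 and Dlx6os2 at 0.22. Nkx2-2os was at -0.093 with limma-voom. Without any 1 library, Grin1os ran from -0.021 to 0.13, Pcsk2os1 from -0.047 to 0.19, Rab10os from -0.021 to 0.086, Atcayos from -0.15 to 0.27 and Nkx2-2os from -0.44 to 0.46. Among the pairs of IDs, with the 2 farthest libraries left out (chosen with the data known), Gm10676 with Mypopos went to r = -0.46 and Rapgef4os2 with Rapgef4os3 to -0.029. The cause of these changes was not tested, and at 667751 to 927242 counts a library, the SE of a tested os ID was as wide as 1.19.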
